A study of Mus musculus with 6 samples.

Results

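The miR-17-92 cluster and its paralogs were followed in exosomes isolated from serum, the vesicles through which cells pass RNA and protein to each other, by means of 5 microRNAs (miRNAs). These were miR-19a, miR-18b, miR-92a, miR-106b and miR-106a, chosen by name from the 380 named miRNAs of a mouse quantitative PCR panel. All 5 gave a threshold cycle (Ct) in every sample, as did 123 of the 380. Of the 13 panel miRNAs of these clusters, the 5 are the only ones with Ct values early enough to be tested. The choice was made with earlier results of these data known. That the 5 were all detected, and their early Ct values, are therefore no result about the clusters as a whole. The serum came from mice at 2 weeks after ACLT. The labels do not expand ACLT, which usually stands for cutting the anterior cruciate ligament to make the knee unstable and bring on osteoarthritis. In the vehicle group 3 samples came from mice given vehicle, and in the OCExoInhib group 3 samples came from mice given OCExoInhib, a name left unexplained in the labels. In the study known to lie behind the series it is an agent that blocks the release of exosomes by osteoclasts, the cells that resorb bone. Both groups had the operation, and no sample without it was analysed here. The labels give no strain, sex, age or dose. Per the series' design, RNA of 3 mice in each group was combined in equal parts. Whether a sample is a mouse of its own or a repeat run of such a pool is not stated, so every p-value rests on a spread between samples that could be technical.

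The miR-17-92 cluster is a polycistron: a single primary transcript is cut into several hairpins, each of which gives a mature miRNA. Its paralogs, the miR-106a-363 and miR-106b-25 clusters, arose by duplication and carry miRNAs of the same seed families, so that members of different clusters can repress overlapping sets of messenger RNAs. The cluster is known for driving cell proliferation and survival, for its role in lymphoma and B cell development, and for skeletal growth, since loss of 1 copy of the human cluster causes a form of Feingold syndrome with short digits.

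The 5 mature sequences, as deposited with the panel, are given 5′ to 3′ with the seed (bases 2 to 8), the stretch that pairs with target messenger RNAs, in capitals. They show that the 5 miRNAs represent 4 seed families, with miR-106a and miR-106b sharing the seed of the miR-17 family.
miR-19a: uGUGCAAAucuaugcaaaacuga
miR-18b: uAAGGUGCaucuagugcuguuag
miR-92a: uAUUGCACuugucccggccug
miR-106b: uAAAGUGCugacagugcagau
miR-106a: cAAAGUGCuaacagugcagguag
Each was identical to the RefSeq mature sequence of that name (GRCm38.p6). The miRNAs are 21 or 23 bases long, and their share of G and C runs from 34.8% in miR-19a to 57.1% in miR-92a.

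Closely related sequences on the same panel are shown because their assays behaved differently.
miR-19b: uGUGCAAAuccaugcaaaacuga
miR-17: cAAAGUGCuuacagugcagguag
miR-18a: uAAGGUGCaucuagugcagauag
miR-92b: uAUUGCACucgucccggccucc
Counting from the 5′ end, miR-19b differs from miR-19a by the single substitution U11C. Likewise, miR-106a differs from miR-17 by U10A, where the first base is that of miR-17. From miR-18a to miR-18b the substitutions are A18U and A20U. Over the 21 bases that they share, miR-92a and miR-92b differ by U10C and G21C. All of these differences lie outside the seed.

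In the mouse genome (GRCm38.p6) the 6 hairpins of the miR-17-92 cluster lie within 836 bases of chromosome 14 on the plus strand, with mature miR-19a at chr14:115044048-115044070. The 6 hairpins of the miR-106a-363 cluster lie within 875 bases of the X chromosome on the minus strand, with miR-106a at chrX:52742541-52742563 and miR-18b at chrX:52742381-52742403. The 3 hairpins of the miR-106b-25 cluster lie within 498 bases of chromosome 5 on the minus strand, with miR-106b at chr5:138165787-138165807, inside the span of Mcm7, which encodes a subunit of the replicative helicase. Mature miR-92a is encoded in 2 of the clusters, at chr14:115044476-115044496 and chrX:52741854-52741874, and the assay cannot tell which copy its RNA came from. The same holds for miR-19b.

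The 3 clusters encode 13 miRNAs that were on the panel, and 7 of them gave a Ct. The plot of raw Ct along the clusters shows 2 separate ranges. The 5 miRNAs followed here lay between Ct 19.7 and 27.3, so that none of their 30 values came near the Ct of 35 after which a value rests on few template molecules. miR-19b and miR-20a lay around that limit, with 2 of 6 and 0 of 6 values under 35, and were not tested for that reason. The other 6, miR-17, miR-18a, miR-20b, miR-363, miR-93 and miR-25, had no Ct in any sample, which says only that these assays gave none within 40 cycles. No cluster was therefore measured as a whole: 4 of 6 miRNAs of the miR-17-92 cluster, 4 of 6 of the miR-106a-363 cluster and 1 of 3 of the miR-106b-25 cluster had a Ct. By seed family, 3 of 6 panel miRNAs with the miR-17 seed, 1 of 2 with the miR-18 seed, 2 of 2 with the miR-19 seed and 2 of 6 with the miR-92 seed had one, where miR-32, miR-367 and miR-92b of the last family lie in no cluster of the 3.

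**Figure D1:**
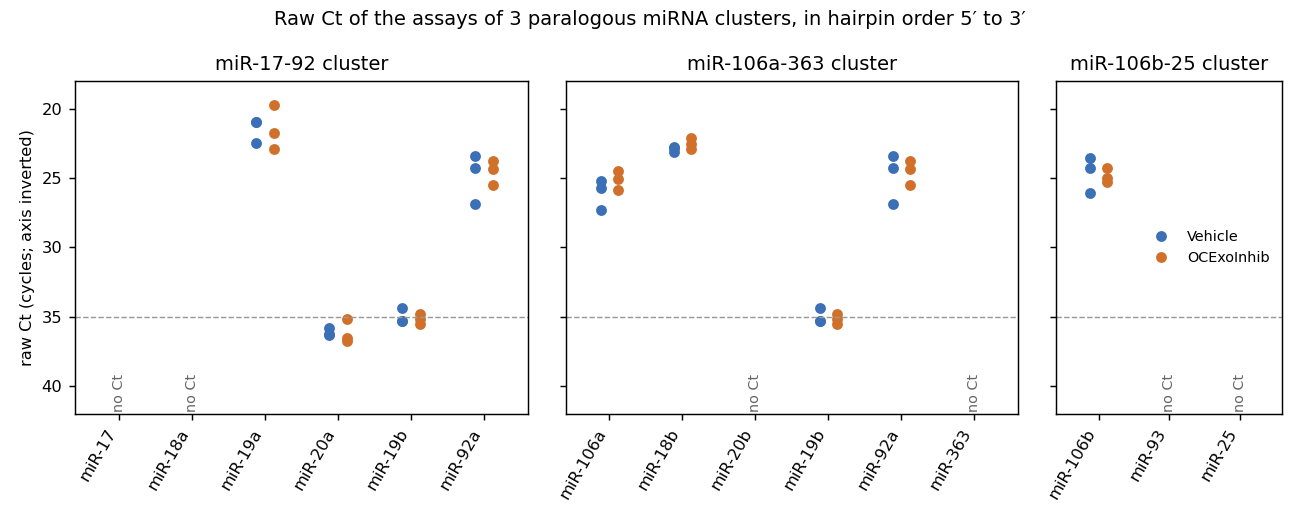
Raw Ct (cycles, axis inverted so that higher levels stand higher) of each assay of the 3 clusters, in hairpin order from 5′ to 3′, with vehicle samples in blue and OCExoInhib samples in orange; each point is 1 sample, the dashed line is Ct 35, and miR-19b and miR-92a appear in both clusters that encode them. The 5 miRNAs followed here lie between 19.7 and 27.3, miR-19b and miR-20a lie around 35, and 6 assays have no Ct.

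The contrast between near-identical sequences was large. miR-19a had Ct values of 22.5, 20.9 and 20.9 in vehicle samples 1 to 3 and 19.7, 22.9 and 21.7 in OCExoInhib samples 1 to 3. miR-19b, a single base away, had values of 35.3, 34.4 and 35.3 and of 34.8, 35.5 and 35.2. In every sample miR-19a was thus far ahead, by 12.7 to 15.1 cycles. The mean gap was 13.5 cycles in vehicle and 13.7 in OCExoInhib samples, so it differed little between the groups. miR-106a was measured at Ct 24.5 to 27.3 while miR-17, also a single base away, had no Ct. miR-18b was measured at Ct 22.1 to 23.1 while miR-18a, 2 bases away, had none. miR-92a and miR-92b lay close together, with miR-92a later by 0.819 ± 1.31 cycles (SD, n = 6) and a range from −1.001 to 2.90. Ct values of different assays depend on each assay's efficiency, which is not given in the sources used here, and cross-reaction between these assays was not tested.

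Levels are given below on a log2 scale, as the negative of the deposited normalized value: the Ct of the miRNA was subtracted from the mean over 3 wells (P21 to P23) of that sample. A higher level is thus a higher amount, and 1 unit is about 1 doubling. The file headers describe these values as relative to a spike-in control. The mean Ct of these wells was 30.9 ± 0.318 (SD, n = 3) in vehicle samples. In OCExoInhib samples it was 30.2 ± 0.531 (SD, n = 3), a difference of −0.725 cycles (exact two-sided permutation p = 0.2), and that difference enters every level in the same way. Differences between groups are OCExoInhib minus vehicle and were tested with limma over all 115 miRNAs that stayed under Ct 35 in 3 or more samples. In RNA from a whole serum fraction, fewer vesicles and less of a miRNA per vesicle cannot be told apart.

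For none of the 5 miRNAs was a difference between vehicle and OCExoInhib samples found that was larger than the spread between samples. Of the 5, 0 passed the adjusted threshold of 0.05 with limma, 0 had an unadjusted p under 0.05 and 0 passed the unmoderated test, against 23.5% of all tested miRNAs called by limma (27 of 115), 17.4% as lower and 6.09% as higher. Of the 27, 22 had a Ct gap between samples of a group that was repeated in other miRNAs, and without the miRNAs with such a gap 5.43% were called (5 of 92, with 1 lower and 4 higher). The 7 miRNAs called higher among the 115, these 4 included, each had a sample at Ct 35 or later. Where all samples had to be under Ct 35, 19 of 101 were called, 19 lower and 0 higher. The share of higher calls thus rests on late values. The samples of the 2 groups overlapped for all 5, while 26.1% of the tested miRNAs showed groups that did not overlap. The median log2 difference of the 5 was −0.39, beside −0.54 for all 115 and −0.44 for the 88 that were not called. Both larger sets include the 5. With 5 miRNAs these shares are a description and set the cluster apart from nothing.

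miR-19a, whose family is regarded as the main oncogenic component of its cluster, was the most abundant of the 5 by Ct. Its log2 level was 8.50, 9.64 and 10.25 in vehicle samples 1 to 3 and 10.62, 7.75 and 7.88 in OCExoInhib samples 1 to 3. OCExoInhib 1 stood above all vehicle samples and the other two below them, so the groups overlapped. The OCExoInhib values spanned 7.33-fold, far more than the difference between the group means. That difference was −0.71 (SE 0.90, 95% interval −2.64 to 1.21, limma adjusted p = 0.866), and it was −1.65 without OCExoInhib 1, −0.21 without OCExoInhib 2 and −0.28 without OCExoInhib 3.

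miR-18b is the miR-106a-363 counterpart of miR-18a, whose family is known to repress the matrix-associated gene Ctgf. Its log2 level was 8.13, 7.78 and 8.10 in vehicle samples and 7.84, 8.50 and 6.72 in OCExoInhib samples. The vehicle samples lay within 1.27-fold of each other, and OCExoInhib 3 alone lay well below them. The difference was −0.32 (SE 0.77, 95% interval −1.96 to 1.32, limma adjusted p = 0.870), and it was 0.16 without OCExoInhib 3 and −0.73 without OCExoInhib 2. By raw Ct miR-18b was among the steadiest miRNAs on the panel: its SD within groups was 0.287 cycles, beside a median of 1.03 over the 115 tested miRNAs, and only 3 of them had a smaller one. After normalization its SD was 0.649, beside a median of 0.964.

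miR-92a, known for restraining blood vessel growth through integrin alpha 5 and abundant in red blood cells, had the widest spread of the 5 in vehicle samples and the narrowest in OCExoInhib samples. Its log2 level was 4.10, 6.32 and 7.75 in vehicle samples and 6.00, 5.14 and 5.85 in OCExoInhib samples. The vehicle samples spanned 12.5-fold and the OCExoInhib samples 1.82-fold, and all OCExoInhib values lay inside that span. The difference was −0.39 (SE 0.91, 95% interval −2.33 to 1.55, limma adjusted p = 0.870). It rested on single vehicle samples: it was −1.37 without vehicle 1 and 0.45 without vehicle 3.

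miR-106b and miR-106a share the seed of the miR-17 family, which is known to repress the cell cycle inhibitor Cdkn1a (p21). The log2 level of miR-106b was 6.74, 7.01 and 5.09 in vehicle samples and 6.05, 5.63 and 4.33 in OCExoInhib samples. Sample 3 was the lowest of both groups, and the other vehicle samples lay above all OCExoInhib samples. The difference was −0.94 (SE 0.83, 95% interval −2.70 to 0.82, limma adjusted p = 0.866), which was the largest in size of the 5 and the 32nd of the 115. On the fold scale the interval runs from 0.154 to 1.76 times the vehicle level. It was −1.53 without vehicle 3 and −0.44 without OCExoInhib 3.

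For miR-106a, the log2 level was 3.68, 4.85 and 5.98 in vehicle samples and 4.45, 6.16 and 4.55 in OCExoInhib samples. OCExoInhib 2 was the highest of all 6 samples and vehicle 1 the lowest. Its difference of 0.22 (SE 0.85, 95% interval −1.58 to 2.02, limma adjusted p = 0.887) was the only one of the 5 above 0. It was −0.36 without vehicle 1 and −0.34 without OCExoInhib 2. Over the 5, the lower ends of the intervals ran from 0.154 (miR-106b) to 0.333 (miR-106a) times the vehicle level. The upper ends ran from 1.76 (miR-106b) to 4.04 (miR-106a) times. Differences inside each miRNA's own interval are thus not excluded with 3 samples per group.

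**Figure D2:**
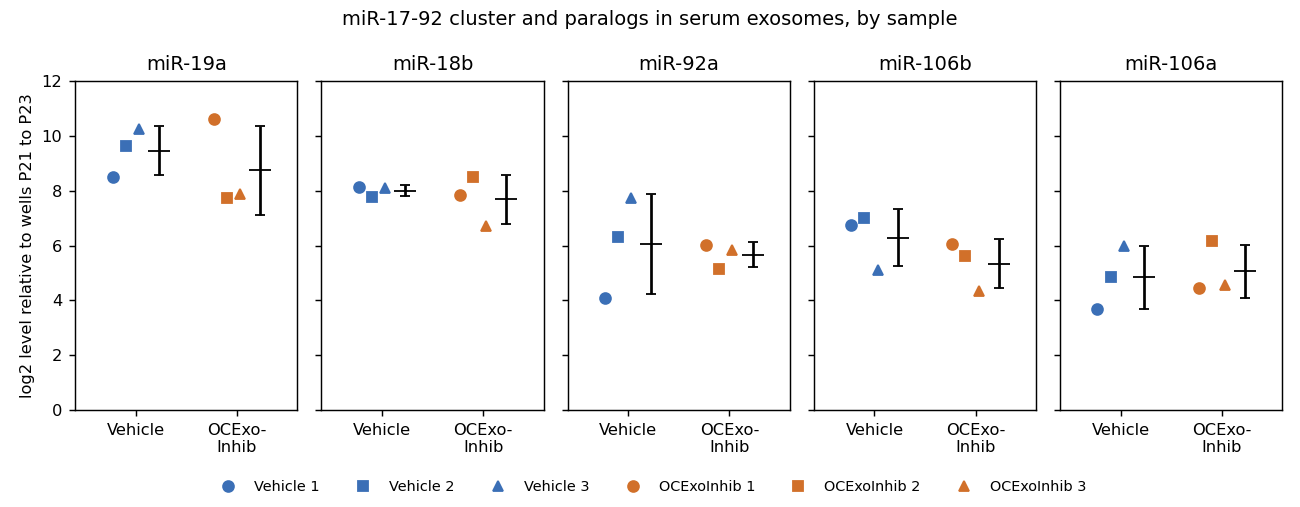
Log2 level relative to wells P21 to P23 of the 5 miRNAs in each vehicle (blue) and OCExoInhib (orange) sample, with symbols for the sample number and, in black, the group mean and SD (n = 3). The groups overlap in every panel; the widest vehicle spread is that of miR-92a (4.10 to 7.75) and the narrowest that of miR-18b (7.78 to 8.13).

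**Figure D3:**
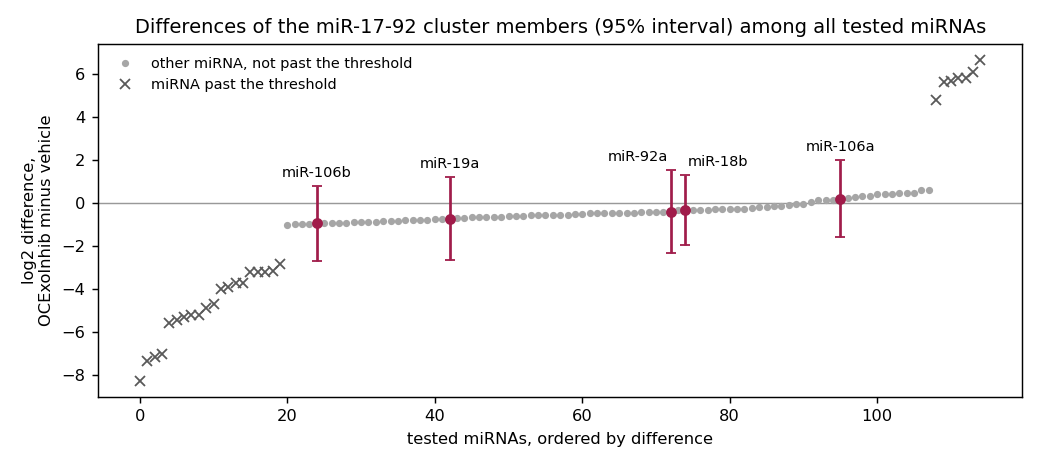
Log2 difference, OCExoInhib minus vehicle, of all 115 tested miRNAs ordered by size, with the 5 miRNAs in red and their 95% intervals (limma, n = 3 per group); crosses are the 27 miRNAs past the threshold. The 5 run from −0.94 to 0.22. They are themselves among the 88 miRNAs that were not called (−0.998 to 0.598), so lying within that range is no result.

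The samples with the highest and lowest levels were not the same for all 5 miRNAs. Vehicle 1 had the lowest vehicle level of miR-19a, miR-92a and miR-106a and the highest of miR-18b. OCExoInhib 1 had the highest OCExoInhib level of miR-19a, miR-92a and miR-106b and the lowest of miR-106a. miR-106a and miR-18b, encoded next to each other in the miR-106a-363 cluster, both had their highest OCExoInhib level in sample 2, while in vehicle samples miR-106a spanned 4.91-fold and miR-18b 1.27-fold.

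Ct differences between 2 of the miRNAs within a sample do not depend on the normalizer wells, and all 10 pairs were compared between the groups. The largest shift was that of miR-106a against miR-106b, the pair with a shared seed. The Ct of miR-106a was later by 1.44 ± 2.06 cycles (SD, n = 3) in vehicle samples and by 0.286 ± 1.15 (SD, n = 3) under OCExoInhib, a shift of −1.16 cycles (exact two-sided permutation p = 0.5, adjusted 1 over the 10 pairs). The smallest shift was 0.0720 cycles, for miR-92a against miR-18b (exact two-sided permutation p = 1). The exact p of the 10 pairs ran from 0.5 to 1, and the smallest that 3 samples against 3 can give is 0.1. No pair could therefore pass 0.05 by this test, and the p-values do not show that the balance of the 5 miRNAs was the same in both groups.

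By mean Ct over the 6 samples the order was miR-19a (21.4), miR-18b (22.7), miR-92a (24.7), miR-106b (24.7) and miR-106a (25.6), where different assays are compared without a common calibration. They ranked 3rd, 6th, 15th, 16th and 28th of the 123 miRNAs with a Ct, whose median was 28.7. miR-19a and miR-18b came first and second in 5 of 6 samples, and OCExoInhib 2 had them in the opposite order. miR-18b was ahead of miR-92a in all 6 samples, by 0.355 to 4.03 cycles. The later neighbours did not differ beyond their spread: the gap from miR-92a to miR-106b was 0.0520 ± 1.84 cycles (SD, n = 6) and that from miR-106b to miR-106a 0.864 ± 1.62.

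The sign of the differences depended on the normalization. On the deposited scale 4 of the 5 were below 0, with global mean normalization or each sample centred on its median Ct none was, and with raw Ct only miR-106b was. Relative to the median of all tested miRNAs, a scaling that shifts a sample as a whole cannot change the differences, since it moves every miRNA alike. They were −0.40 for miR-106b, −0.17 for miR-19a, 0.15 for miR-92a, 0.22 for miR-18b and 0.76 for miR-106a. Quantile normalization, which does not shift samples as a whole, gave −0.35, −0.61, 0.00, 0.60 and 0.89 in the same order. Leaving out single samples on the deposited scale moved these relative values more. They ran from −1.11 to −0.09 for miR-106b, from −0.94 to 0.30 for miR-19a and from −0.81 to 0.88 for miR-92a. For miR-18b they ran from −0.21 to 0.51 and for miR-106a from 0.18 to 1.23. Of the settings tried, only centring on sample medians let any of the 5 pass the threshold, with miR-18b (2.23), miR-92a (2.15) and miR-106a (2.76) called higher. That setting called 58.3% of all tested miRNAs (48.7% of all as higher), and it moved the median of all to 2.00. The sample medians themselves, over the 123 miRNAs with a Ct, were 27.6 cycles on average in vehicle and 29.4 in OCExoInhib samples, later by 1.82. By mean Ct, which is another measure, the 115 tested miRNAs did not shift that far. Their mean Ct was 28.5, 27.8 and 28.4 in vehicle samples 1 to 3 and 28.2, 28.7 and 28.0 in OCExoInhib samples 1 to 3. By raw Ct, with no normalization, the median log2 difference over the 115 was 0.18, that is, slightly higher in OCExoInhib samples.

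**Figure D4:**
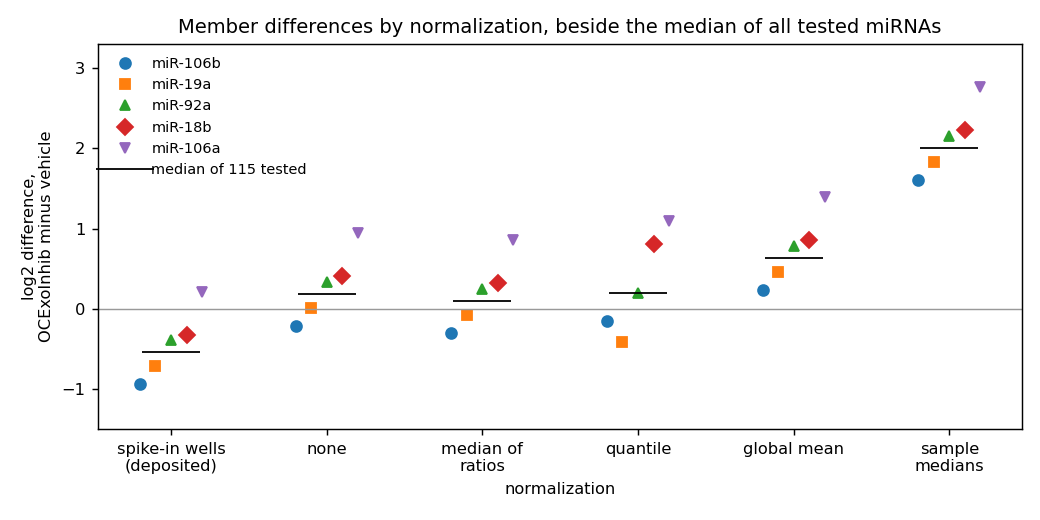
Log2 difference, OCExoInhib minus vehicle, of the 5 miRNAs (symbols) under the deposited normalization and 5 others, beside the median of the 115 tested miRNAs (black bars). The values cross 0 with the choice of normalization, from −0.94 to 0.22 as deposited and from 1.604 to 2.76 with sample medians. Scalings that shift a sample as a whole cannot change the order of the 5 or their distances from the bar. The distance of miR-106a is 0.76 under these and 0.89 with quantile normalization.

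Repeated Ct differences between samples, seen in 23 of the 123 miRNAs, were absent from all 5. Such a difference was counted where the same gap between 2 samples of a group, within 0.0015 cycles, occurred in at least 5 miRNAs. For the 5 miRNAs a gap was shared with at most 1 other miRNA. None of the 5 was among the miRNAs called without those that carried one.

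Within each sample all assays share that sample's RNA. The miRNAs most like each of the 5 were sought among 110 other tested miRNAs by the Pearson correlation of raw Ct over 6 samples. This was the highest of 110 values in each case and is given as a description. miR-106a was closest to miR-100, with r 0.978 (0.990 for the normalized level) and a mean absolute Ct difference of 0.327 cycles, so that these 2 assays gave nearly the same Ct in each sample. miR-92a followed miR-206, best known from muscle, with r 0.990 but 8.77 cycles apart. miR-19a followed miR-199a-5p (r 0.967, and 0.685 for the normalized level), miR-106b followed miR-34b-5p (0.896) and miR-18b followed let-7c (0.873). Next in the same order of members came let-7b (0.859), miR-497 (0.971), miR-182 (0.928), miR-193 (0.858) and miR-669b (0.755). By mean absolute Ct difference the nearest were miR-29a for miR-19a (0.808 cycles), miR-669a for miR-92a (0.766), miR-30b for miR-106b (0.421) and let-7f for miR-18b (0.654), followed by let-7d (1.17), miR-96 (0.871), miR-29b (0.482) and miR-33 (0.756), with miR-26b (0.674) second for miR-106a.

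Markers of blood cells were read beside these values, since miR-92a and miR-106b are abundant in such cells. Of 4 erythrocyte miRNAs, miR-451 and miR-486 had no Ct in any sample, and neither did miR-23a, the usual reference for haemolysis. miR-144 had log2 levels of 3.55, 4.87 and 3.73 in vehicle and 4.62, 2.45 and 3.40 in OCExoInhib samples, with overlapping groups (difference −0.56, SE 0.82). miR-16 was lower in OCExoInhib samples (−5.41, SE 0.88, limma adjusted p = 0.000193) and was among the miRNAs with a repeated Ct difference. Of 4 platelet and 4 leukocyte miRNAs 2 each had a Ct. The platelet miRNA miR-21 was lower in OCExoInhib samples (−4.87, SE 0.80, limma adjusted p = 0.000193) and also had a repeated Ct difference, while miR-223, at Ct 36.1 to 37.2, was not tested. Neither leukocyte miRNA passed, with differences of 0.44 (SE 0.77) for miR-150 and −0.998 (SE 1.19) for miR-146a. Of 3 liver miRNAs, miR-122 had no Ct, miR-192 had overlapping groups (−0.16, SE 0.87) and miR-194 was lower (−5.27, SE 0.93, limma adjusted p = 0.000296), also with a repeated Ct difference. The part of these cells in the levels of miR-92a and miR-106b was not tested.

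The authors' deposited table gave folds of vehicle over OCExoInhib of 1.92 for miR-106b, 1.64 for miR-19a, 1.312 for miR-92a, 1.248 for miR-18b and 0.861 for miR-106a. These folds equal those of the group means on the deposited normalization to within rounding and carry no error of their own. The same table gave 1.886 for miR-19b and 1.664 for miR-20a. With no limit on Ct, limma gave a log2 difference of −0.92 (SE 0.74, adjusted p = 0.852) for miR-19b and of −0.73 (SE 0.75, adjusted p = 0.852) for miR-20a. The levels of miR-19b did not overlap between groups on the deposited scale, with −4.34, −3.78 and −4.11 in vehicle and −4.48, −4.91 and −5.58 in OCExoInhib samples, while its raw Ct values did overlap. miR-92b, which has the miR-92 seed but lies in none of the 3 clusters, was measured at log2 levels of 7.01, 6.88 and 6.75 in vehicle and 6.82, 6.61 and 6.02 in OCExoInhib samples, a difference of −0.40 (SE 0.73, limma adjusted p = 0.866) close to that of miR-92a.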

How the data were processed

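Per the labels' protocols, exosomal RNA was purified with a column kit, reverse transcribed and measured by SYBR Green real-time PCR on a ViiA7 for 40 cycles. Per the file headers, the raw table holds threshold cycles. The sources used here do not say how the threshold was set. The normalized table that the authors deposited is in cycles, that is, in log2 units. Its header names a spike-in control as reference, and each value equals the raw Ct less the mean over wells P21 to P23. The authors' deposited ratio, vehicle over OCExoInhib, was used for comparison only. Columns of values from any other sample numbered 0.

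R 4.3.3 and limma 3.58.1 (lmFit, then eBayes) served to compare levels of the 115 miRNAs that stayed under Ct 35 in 3 or more of the 6 samples. Tests were two-sided, with Benjamini-Hochberg adjustment over all 115 and a threshold of 0.05. The procedure was tested on simulated data with independent noise in each miRNA and sample. Such data hold no repeated Ct gaps and no repeat runs of a pool, so that test does not vouch for the calls made here. Pairs of miRNAs were compared with exact permutation tests in scipy 1.17.1. Sequences and positions come from RefSeq (GRCm38.p6); 23 of the 25 cluster and seed-related panel sequences were identical to RefSeq. Named miRNAs are the 5, panel miRNAs of the 3 clusters and of same or related seed, blood-cell and liver markers, and the 2 most like each by either measure. The members, lists and alternatives were chosen with earlier results of these data known.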

Additional observations from a re-analysis of the deposited data

How the results depend on the processing

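The 5 miRNAs were recomputed under 5 other normalizations, other Ct limits and variance models, the sample number as a block, vehicle samples 1 and 3 averaged, without miRNAs that carry a repeated difference, and with each sample left out. With global mean normalization miR-18b turned to 0.86, miR-92a to 0.79, miR-19a to 0.46 and miR-106b to 0.24. With quantile normalization miR-18b turned to 0.80 and miR-92a to 0.20, with no normalization miR-18b to 0.41, miR-92a to 0.33 and miR-19a to 0.011, and with median-of-ratios centring miR-18b to 0.32 and miR-92a to 0.25. Centring on sample medians gave 2.23 for miR-18b, 2.15 for miR-92a, 1.83 for miR-19a, 1.604 for miR-106b and 2.76 for miR-106a, and it called 3 of the 5 and 67 of all miRNAs, 11 lower and 56 higher. Apart from the shift that a scaling gives every miRNA alike, the cause was not tested. Averaging vehicle samples 1 and 3 moved the differences and kept the sign of all 5. The other Ct limits and variance models, the block and the omission of repeated differences left all 5 differences unchanged. These settings do not alter the group means of the 5, so they could change only the errors and p-values. They are therefore no test of the sign.

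With samples left out, miR-19a ranged from −1.65 to −0.21, miR-92a from −1.37 to 0.45 (above 0 without vehicle 3), miR-106a from −0.36 to 0.79 (below 0 without vehicle 1 or OCExoInhib 2), miR-106b from −1.53 to −0.44 and miR-18b from −0.73 to 0.16 (above 0 without OCExoInhib 3). Of the 5, 0 to 0 were called, and of all miRNAs 24 to 27, with 17 to 20 lower and 7 to 7 higher. Counts over all miRNAs were 16 with quantile normalization (9 lower), 15 with the unmoderated test (11 lower, 4 higher) and 5 without miRNAs that carry a repeated difference (1 lower, 4 higher). Higher calls numbered 0 where all samples had to be under Ct 35, which left 101 miRNAs tested. They numbered 3 where late values were made missing, which left 112.

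The labels give the numbers 1 to 3 in both groups but name no shared animal, litter or day. The block was therefore an alternative only: it called 0 of the 5 and 25 of all miRNAs. For the pairing of samples 1, 2 and 3, deviations from the mean of each group gave correlations of 0.0587, 0.0177 and 0.117. Vehicle 1 correlated best with OCExoInhib 2 (0.0985).

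Of the 10 Ct differences between pairs, 8 changed sign when some sample was left out. Left-out samples moved miR-19a against miR-92a from −0.21 to 1.09, against miR-106a from −0.12 to 2.16, against miR-106b from −1.21 to 0.48 and against miR-18b from −0.51 to 1.25. They moved miR-92a against miR-106a from −0.21 to 1.08, against miR-106b from −1.99 to 0.66 and against miR-18b from −0.73 to 1.11, and miR-106a against miR-18b from −1.06 to 0.10.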

Other observations

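Panel miRNAs with a seed related to that of the miR-17 family but from other loci were measured in part. Of 9 such miRNAs, which are known from embryonic stem cells (the miR-302 and miR-290 clusters) or from the Sfmbt2 intron (miR-467a), 3 had a Ct. miR-291a-3p had log2 levels of −2.16, −3.30 and −3.44 in vehicle and −3.47, −3.81 and −4.37 in OCExoInhib samples, a difference of −0.91 (SE 0.76, limma adjusted p = 0.866). Its groups did not overlap on the deposited scale but did by raw Ct. miR-467a had log2 levels of 2.83, 5.42 and 2.37 in vehicle and 4.20, 4.85 and 3.35 in OCExoInhib samples, a difference of 0.60 (SE 0.90, limma adjusted p = 0.866). miR-291b-3p, with raw Ct values of 34.2 to 36.8, was not tested.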
